A study of Mus musculus with 30 samples.

Results

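Chemokines and chemokine receptors were followed across 10 groups of mouse thyroid libraries. They were taken as every gene of the count table whose symbol is Ccl or Cxcl with a number and at most a letter after it, or Ccr or Cxcr with a number. This rule found 53 of the 33924 genes in the table, of which 36 encode ligands (23 CC and 13 CXC) and 17 encode receptors (10 CC and 7 CXC). Of these members, 47 passed the filter on low counts and were tested among 19016 genes, 31 of them ligands and 16 receptors. Ccl21a, Ccl21b, Ccl21c and Ccl27b had no count in any library. Ccl26 and Cxcr1 had counts below the filter, so these 6 members were not tested.

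Chemokines are small secreted proteins that guide the movement of cells along gradients. They act through G protein-coupled receptors, most of which sit on leukocytes, and the family divides into CC and CXC ligands by the spacing of conserved cysteines. In tumours they are made by the tumour cells, by fibroblasts, by endothelium and by the leukocytes that they attract, and many of their genes are induced by NF-kappaB or by interferon.

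The thyroids carried Braf V600E, an activating mutation of the kinase Braf that drives MAPK signalling, alone or with knockout (KO) of Smarcb1, Arid2 or Arid1a, genes of the chromatin remodeller SWI/SNF. Mice of these 4 genotypes received the MEK inhibitor CH5126766, labelled CKI, or vehicle over 8 days, and tissue was taken about 2 h after the last dose. Arid1a KO and wild-type thyroids without mutant Braf were untreated. The groups are called Braf Smarcb1 KO, Braf Arid2 KO, Braf Arid1a KO and Braf, each with CKI or vehicle, then untreated Arid1a KO and wild type, and each held 3 libraries except 2 in both Braf Arid2 KO groups. The age of the mice and the Cre and promoter behind each allele are not given in the sources used here. The question of the series is what losing SWI/SNF does to Braf-mutant thyroid tumours and to their redifferentiation under MEK inhibition.

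Depth was 23879271 to 34400066 counts per library, and the members together took 0.0692% to 0.929% of a library's counts. Levels are CPM, the counts scaled to a common library size with TMM factors that correct for RNA composition, and are not per length, so they compare libraries and not genes. The labels give flash freezing of whole thyroids for wild-type, Arid2 and Smarcb1 mice, and sorting of YFP+ cells for all samples, so preparation and genotype cannot be told apart where these groups meet. Leukocyte genes were present in all 28 libraries, with a summed level of 7 markers between 111 and 4360 CPM, and in bulk RNA fewer cells of a type and less RNA per cell cannot be told apart. Smarcb1 was at 11.9 to 47.4 CPM with CKI and 2.28 to 17.9 CPM with vehicle in Braf Smarcb1 KO, against 57.0 to 249 CPM in the other Braf groups, and it was also lower in untreated Arid1a KO (15.1 to 62.5 CPM) than in wild type (74.8 to 152 CPM). Counts over the whole gene did not separate Arid1a KO from Braf libraries, and Arid2 was no lower in Braf Arid2 KO (15.5 to 37.5 CPM with vehicle) than in Braf (7.03 to 19.7 CPM with vehicle), so those libraries are called "labelled Braf Arid2 KO". Replicate 3 of untreated Arid1a KO stood apart with 64.7 CPM of thymocyte markers, against 0.172 and 0.786 CPM in the other libraries of its group. All 26 pairs of libraries within a group differed beyond counting noise, with a chi-square per degree of freedom of 77 to 359. The labels do not state separate animals, so a p-value measures only the spread among the libraries at hand.

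The 10 members with the highest mean level were Cxcl1, Cxcl2, Ccl6, Ccl4, Cxcr7, Ccl2, Ccl9, Cxcl12, Cxcl16 and Cxcl10. Group means ranged from 172 to 845 CPM for Cxcl1, a neutrophil attractant, and from 10.2 to 900 CPM for Ccl6, a ligand of Ccr1. Cxcl16, a membrane-bound ligand of Cxcr6, had group means of 37.2 to 184 CPM and was called in no comparison. Cxcl12, the ligand of Cxcr4 and Cxcr7, averaged 8.81 CPM in Braf Smarcb1 KO with vehicle and 228 CPM in wild type at its extremes. A member is said to rise or fall only where its adjusted p was under 0.05 (edgeR quasi-likelihood test, Benjamini-Hochberg over all genes tested). Fold changes are log2, the group named first over the one it is set against, and SE is their standard error.

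**Figure D1:**
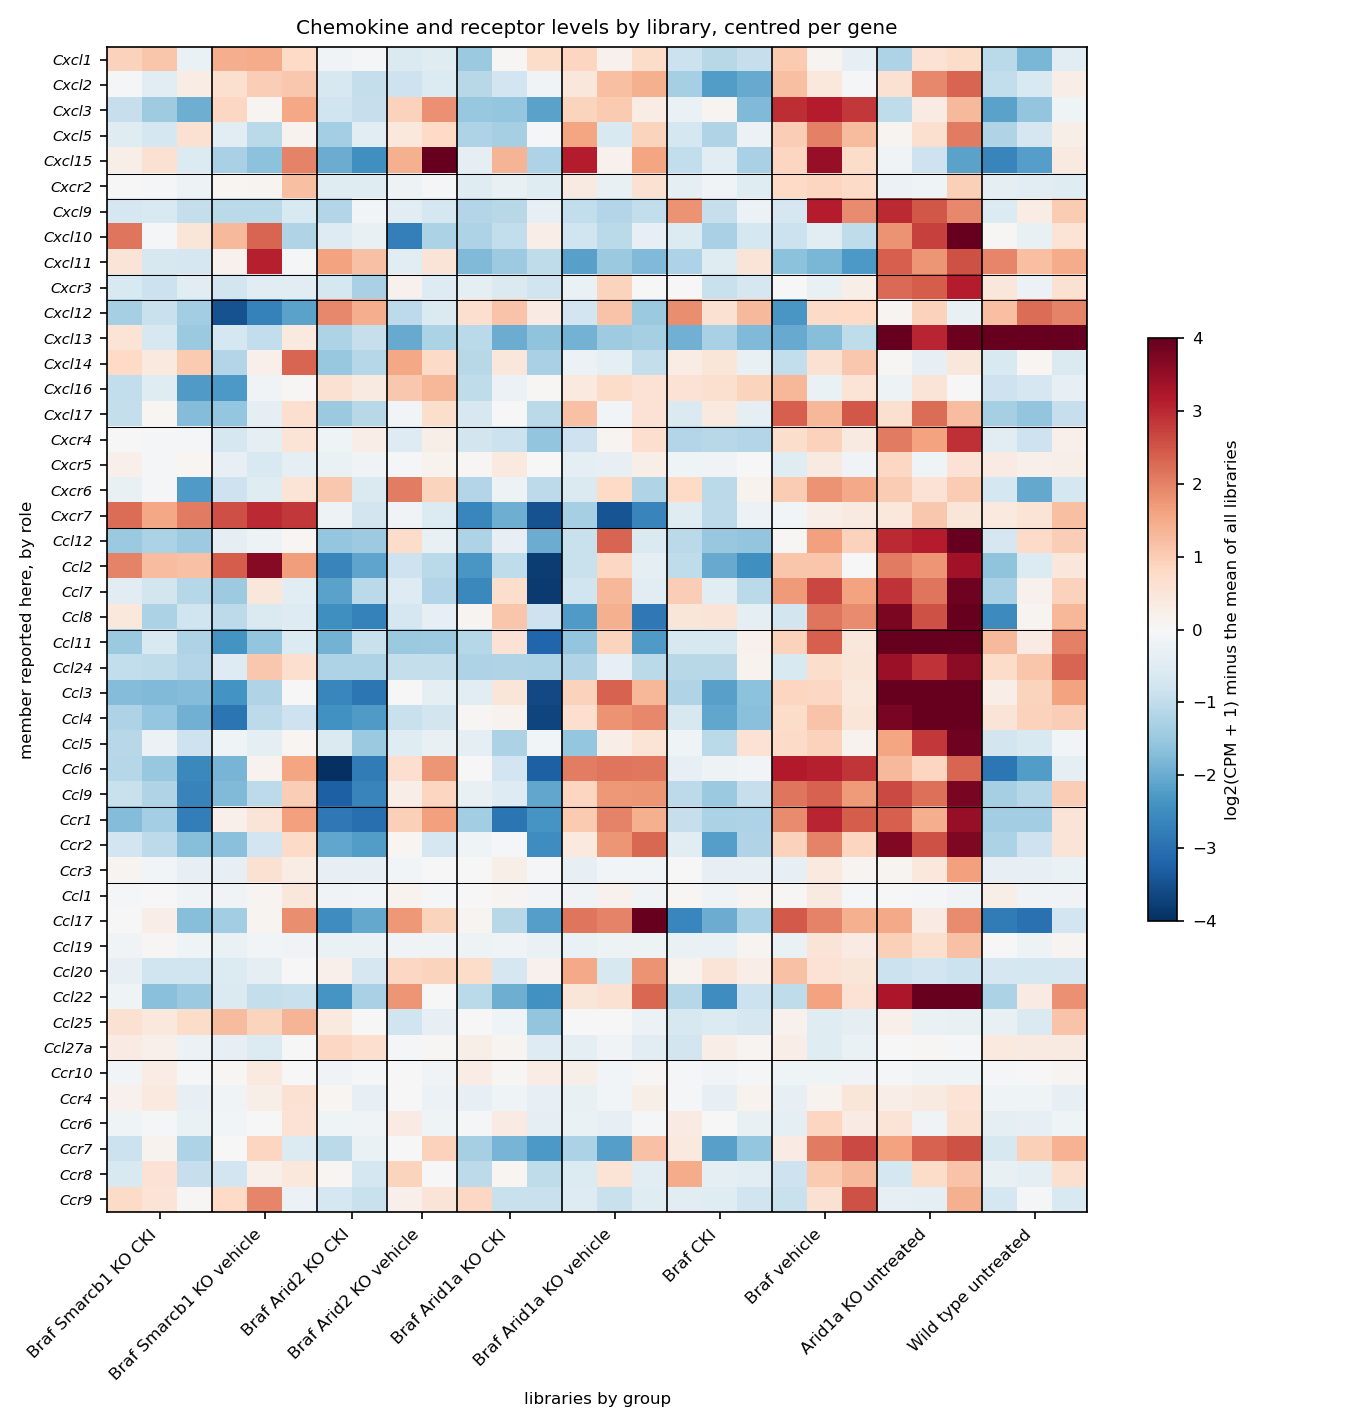
Heat map of the members that passed the filter and are reported here (rows, by role) in 28 libraries (columns, by group). Colour is log2(CPM + 1) minus the gene's mean over all libraries. Ccl3, Ccl4, Ccl5 and the receptor Ccr2 are high in untreated Arid1a KO, and Cxcl13 is high in untreated Arid1a KO and wild type.

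Promoters are shown for Ccr1, which fell with CKI in all 4 genotypes, for Cxcl3, Cxcl1 and Cxcl2 of 1 gene cluster on chromosome 5, of which Cxcl3 and Cxcl2 were called with CKI in Braf, and for Cxcl10, whose promoter holds several motifs. Sequences are from RefSeq on GRCm38.p6, another build than that of the counts, and run from 250 bases before the gene's start to 50 after it, 5′ to 3′ on the gene's strand. Capitals mark motif matches on either strand: NF-kappaB, the interferon-stimulated response element (ISRE, TTTC, any 2 bases, then TTTC), AP-1 (TGANTCA) and ETS (CCGGAA). Ccr1 is at chr9:123968643-123968942 on the minus strand, Cxcl3 at chr5:90785851-90786150, Cxcl1 at chr5:90890995-90891294 and Cxcl2 at chr5:90903649-90903948, all 3 on the plus strand, and Cxcl10 at chr5:92348840-92349139 on the minus strand.
Ccr1: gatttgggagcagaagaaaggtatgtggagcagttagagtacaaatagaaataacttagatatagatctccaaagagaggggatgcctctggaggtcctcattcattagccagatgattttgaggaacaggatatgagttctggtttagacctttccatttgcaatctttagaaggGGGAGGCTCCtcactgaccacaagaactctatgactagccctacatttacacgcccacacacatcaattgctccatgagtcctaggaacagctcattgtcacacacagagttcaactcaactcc
Cxcl3: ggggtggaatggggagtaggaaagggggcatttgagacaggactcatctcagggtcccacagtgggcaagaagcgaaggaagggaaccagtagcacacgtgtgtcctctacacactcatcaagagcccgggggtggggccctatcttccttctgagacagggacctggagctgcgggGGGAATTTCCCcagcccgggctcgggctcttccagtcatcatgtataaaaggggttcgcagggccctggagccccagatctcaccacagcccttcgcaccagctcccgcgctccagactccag
Cxcl1: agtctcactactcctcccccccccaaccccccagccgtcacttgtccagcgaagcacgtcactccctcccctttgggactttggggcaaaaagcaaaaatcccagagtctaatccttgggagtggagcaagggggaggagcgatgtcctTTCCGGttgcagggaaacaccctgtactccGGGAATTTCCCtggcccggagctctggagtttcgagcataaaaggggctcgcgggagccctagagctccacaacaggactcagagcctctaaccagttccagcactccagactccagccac
Cxcl2: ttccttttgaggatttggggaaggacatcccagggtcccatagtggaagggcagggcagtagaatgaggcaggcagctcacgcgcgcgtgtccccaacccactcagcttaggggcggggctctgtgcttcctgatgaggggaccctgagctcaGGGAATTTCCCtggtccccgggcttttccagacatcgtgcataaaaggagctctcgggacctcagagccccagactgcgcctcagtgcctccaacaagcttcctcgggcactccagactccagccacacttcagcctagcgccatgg
Cxcl10: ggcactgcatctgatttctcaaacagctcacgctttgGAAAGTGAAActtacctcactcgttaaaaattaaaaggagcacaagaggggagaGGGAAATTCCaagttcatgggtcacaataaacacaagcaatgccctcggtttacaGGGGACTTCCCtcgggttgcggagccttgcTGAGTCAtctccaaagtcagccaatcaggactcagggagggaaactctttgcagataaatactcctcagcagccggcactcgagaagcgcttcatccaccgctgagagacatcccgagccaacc

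The same letters GGGAATTTCC, an NF-kappaB match, began 73 bases before the start of Cxcl3, 71 before Cxcl1 and 97 before Cxcl2. In each it overlapped a match on the other strand that is shifted by a base. Cxcl10 held NF-kappaB matches that began 159, 104 and 103 bases before its start, the last pair overlapping, with an ISRE match at 213 and an AP-1 match at 74 bases. Ccr1 held an NF-kappaB match at 74 bases. Of the 37 members with a promoter in the table, 11 held an NF-kappaB match, 3 an ISRE, 7 an AP-1 and 2 an ETS match. Over all 32851 promoters of 300 bases, these motifs were found in 8.46%, 3.44%, 7.81% and 14.9%, in the same order. The members are counted by gene, with a match in any listed promoter (4 members have more than 1), and the background by promoter. A match describes letters and shows no binding.

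CKI in Braf thyroids was set against vehicle to ask how MEK inhibition changes the chemokine system of Braf V600E tissue. Among 47 members tested, 16 fell and 1 rose, against 5.01% of all genes that fell, 7.96% that rose and 13.0% in either direction, and 36.2% of the members were called. The neutrophil attractants Cxcl2 and Cxcl3 and the monocyte attractant Ccl2 fell, as did their receptors Cxcr2 and Ccr2, and Cxcl11 rose. The median log2 change was -1.82 over the members and -0.01 over all genes tested.

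Among the CXC members, Cxcl2 and Cxcl3, which attract neutrophils through Cxcr2, both fell. Cxcl2 was at 73.4, 39.0 and 45.4 CPM in Braf CKI libraries, against 430, 248 and 179 CPM in Braf vehicle libraries, a log2 change of -2.44 (SE 0.43, adjusted p = 0.00191). Cxcl3 was at 2.69, 3.75 and 0.310 CPM in Braf CKI, against 33.2, 37.5 and 30.3 CPM in Braf vehicle (log2 change -3.90, SE 1.11, adjusted p = 0.0257). Neither gene's groups overlapped, and every CKI library was the lower. Cxcl1, of the same gene cluster, was also lower in every CKI library, at 162 to 193 CPM with CKI and 279 to 723 CPM with vehicle, but did not pass the test (log2 change -1.36, SE 0.51, adjusted p = 0.0784). Cxcr2 itself was at 0.0974, 0.253 and 0 CPM in Braf CKI, against 1.43, 1.52 and 1.38 CPM in Braf vehicle (log2 change -3.62, SE 1.16, adjusted p = 0.0443). These levels are low in all libraries, and the groups did not overlap.

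Cxcl17, a chemokine of mucosal tissue, fell by 2.66 on the log2 scale (SE 0.86, adjusted p = 0.0452). Cxcr4, the receptor of Cxcl12, was at 3.18, 3.33 and 3.17 CPM in Braf CKI, against 14.3, 16.8 and 11 CPM in Braf vehicle (log2 change -2.12, SE 0.46, adjusted p = 0.00732). The 3 CKI libraries lay close together and below every vehicle library. Cxcl11, an interferon-inducible ligand of Cxcr3, was at 1.46, 3.12 and 7.30 CPM in Braf CKI, against 0.866, 0.651 and 0.197 CPM in Braf vehicle (log2 change 2.80, SE 0.82, adjusted p = 0.0295). It was the only member that rose in this comparison, and its groups did not overlap.

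The CC members that fell included the ligands Ccl2, Ccl12, Ccl3, Ccl4, Ccl6, Ccl9 and Ccl17 and the receptors Ccr1, Ccr2 and Ccr7. Ccl17, which attracts T cells through Ccr4, was at 1.10, 2.23 and 4.34 CPM in Braf CKI, against 68.8, 49.1 and 33.0 CPM in Braf vehicle (log2 change -4.29, SE 1.04, adjusted p = 0.0127). Ccl12, a mouse ligand of Ccr2, was at 1.17, 0.632 and 0.551 CPM in Braf CKI, against 3.72, 13.5 and 7.71 CPM in Braf vehicle (log2 change -3.40, SE 0.91, adjusted p = 0.0202). In both genes all CKI libraries were below all vehicle libraries. Ccl9, a mouse ligand of Ccr1, was at 22.4, 16.3 and 24.7 CPM in Braf CKI, against 215, 251 and 158 CPM in Braf vehicle (log2 change -3.30, SE 0.73, adjusted p = 0.0085). Ccl6, its neighbour on chromosome 11, was at 85.8, 93.6 and 99.5 CPM in Braf CKI, against 980, 932 and 787 CPM in Braf vehicle (log2 change -3.27, SE 0.80, adjusted p = 0.0128). Both were lower in every CKI library, without overlap. Ccl2, the main monocyte attractant, fell by 2.59 on the log2 scale, and Ccl3 and Ccl4, attractants of macrophages and T cells, fell by 2.52 and 2.24 on that scale.

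Ccr1, a receptor of myeloid cells for Ccl3, Ccl6 and Ccl9, was at 5.78, 4.30 and 4.44 CPM in Braf CKI, against 46.0, 104 and 66.6 CPM in Braf vehicle (log2 change -3.90, SE 0.72, adjusted p = 0.00269). Ccr2, the receptor of Ccl2 on monocytes, was at 18.8, 4.97 and 10.8 CPM in Braf CKI, against 51.5, 108 and 49.1 CPM in Braf vehicle (log2 change -2.59, SE 0.72, adjusted p = 0.0229). Neither receptor's groups overlapped. Ccr7, which brings dendritic cells and naive T cells to lymph nodes, was at 9.83, 0.843 and 1.82 CPM in Braf CKI, against 9.32, 33.7 and 51.2 CPM in Braf vehicle (log2 change -2.91, SE 0.96, adjusted p = 0.0479). It is the only called member here whose groups overlapped, through the highest CKI and the lowest vehicle library.

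Leukocyte markers moved with these genes: all 7 fell, and their summed level was 166 to 305 CPM with CKI and 929 to 1480 CPM with vehicle in Braf. Macrophage markers summed to 596 to 1150 CPM with CKI and 3260 to 4450 CPM with vehicle, with 5 of 9 tested called lower. Mast cell and basophil markers summed to 26.4 to 72.9 CPM with CKI and 370 to 4300 CPM with vehicle, with 3 of 5 called lower, and Cpa3 was at 0 with CKI. Most of the vehicle sum was Mcpt8, at 4299, 341 and 1816 CPM, against 19.8, 68.0 and 22.9 CPM with CKI. Kit overlapped, at 4.80 to 16.8 CPM with CKI and 3.21 to 14.3 CPM with vehicle. Neutrophil markers were low throughout (1.96 to 6.49 CPM with CKI, 5.25 to 23.3 CPM with vehicle), and Ly6g was at 0 in both groups. The part of these cell types in the changes was not tested. The count of called members was 4 without CKI replicate 4, 9 without CKI replicate 1 or 5, 6 without vehicle replicate 4, 8 without vehicle replicate 2 and 14 without vehicle replicate 5. Ccl9, Ccr1, Cxcl2 and Cxcr4 were called in all 6 of these fits.

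**Figure D2:**
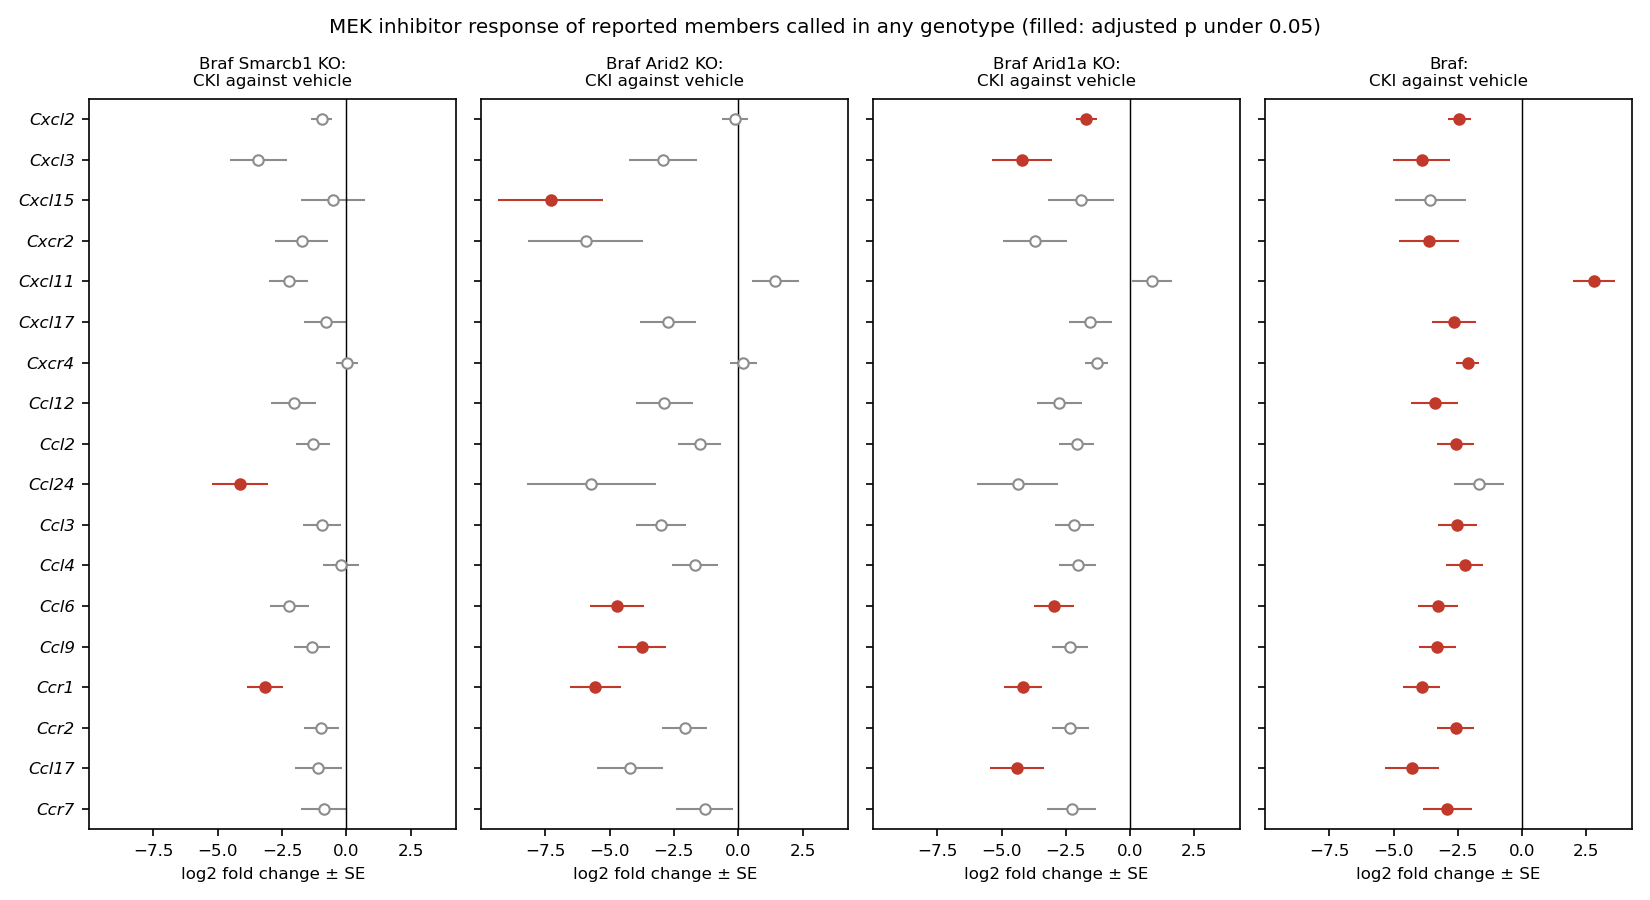
Log2 fold change, CKI over vehicle (x axis), with its SE (bars) for the members called in any genotype and reported here (rows), in 4 panels by genotype. Filled points have an adjusted p under 0.05. Ccr1 is filled in all 4 panels, and Cxcl11 lies right of 0 in every panel except Braf Smarcb1 KO, where it is -2.25.

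In Braf Arid1a KO thyroids, CKI against vehicle lowered 5 members and raised none, where 2.00% of all genes fell, 2.51% rose and 4.51% were called in either direction, and 10.6% of the members were called. The 5 were Cxcl2, Cxcl3, Ccl6, Ccl17 and Ccr1. Ccr1 was at 3.89, 0.679 and 1.47 CPM with CKI, against 25.3, 49.8 and 33.5 CPM with vehicle (log2 change -4.16, SE 0.73, adjusted p = 0.00291). Ccl17 was at 12.8, 4.97 and 1.78 CPM with CKI, against 55.0, 49.1 and 312 CPM with vehicle (log2 change -4.41, SE 1.04, adjusted p = 0.0189). In both genes the groups did not overlap, and a single vehicle library carried most of the Ccl17 signal. Cxcl3 was at 0.541, 0.500 and 0 CPM with CKI, against 7.20, 8.10 and 4.4 CPM with vehicle (log2 change -4.21, SE 1.18, adjusted p = 0.0423). Ccl6 was at 108, 62.8 and 10.2 CPM with CKI, against 453, 481 and 471 CPM with vehicle (log2 change -2.96, SE 0.79, adjusted p = 0.0337). Cxcl2 was at 85.1, 110 and 167 CPM with CKI, against 256, 431 and 496 CPM with vehicle (log2 change -1.71, SE 0.42, adjusted p = 0.024). All 3 were lower in every CKI library.

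Over the members tested in Braf Arid1a KO the median log2 change was -1.18, and over all genes it was 0.03. Leukocyte markers summed to 144 to 397 CPM with CKI and 471 to 1020 CPM with vehicle, and 1 of 7 was called lower. Macrophage markers, 2 of 9 called lower, summed to 143 to 1070 CPM with CKI and 1710 to 3430 CPM with vehicle, and CKI replicate 5 stood apart at 143 CPM. Mast cell and basophil markers summed to 13.1 to 18.1 CPM with CKI and 163 to 332 CPM with vehicle, but did not move together. Mcpt8 was at 5.31, 6.58 and 1.4 CPM with CKI and 331, 162 and 252 CPM with vehicle. Kit was higher with CKI (7.81, 11.5 and 15.9 CPM) than with vehicle (0.86, 1.10 and 1.21 CPM). The part of these cell types in the result was not tested. Ccr1 was the only member called in every fit that left out 1 library. The count was 1 without vehicle replicate 3, 2 without vehicle replicate 2 or CKI replicate 5, and 3 without vehicle replicate 1 or CKI replicate 2. Fitted on these 6 libraries alone, 1 member was called.

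In the libraries labelled Braf Arid2 KO, CKI against vehicle lowered Ccr1, Ccl6, Ccl9 and Cxcl15 and raised no member, where 1.96% of all genes fell, 1.41% rose and 3.37% were called in either direction, and 8.51% of the members were called. Ccr1 was at 0.748 and 0.572 CPM with CKI, against 23.8 and 38.6 CPM with vehicle (log2 change -5.56, SE 0.98, adjusted p = 0.00364). Ccl6 was at 5.87 and 14.6 CPM with CKI, against 171 and 365 CPM with vehicle (log2 change -4.71, SE 1.05, adjusted p = 0.0166). Ccl9 was at 4.02 and 6.76 CPM with CKI, against 58.0 and 87.2 CPM with vehicle (log2 change -3.75, SE 0.92, adjusted p = 0.027). In these 3 genes both CKI libraries were far below both vehicle libraries. Cxcl15, a mouse ligand of the neutrophil-attracting type known from lung epithelium, was at 0.669 and 0.214 CPM with CKI, against 16.9 and 122 CPM with vehicle (log2 change -7.30, SE 2.04, adjusted p = 0.0498). Its vehicle libraries differed from each other more than those of any other called member here.

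Cxcl2 did not pass the test in these libraries, with 118 and 95.2 CPM with CKI and 105 and 128 CPM with vehicle (log2 change -0.13, SE 0.50, adjusted p = 0.929). The median log2 change was -1.69 over the members and -0.03 over all genes. Leukocyte markers summed to 163 to 174 CPM with CKI and 536 to 574 CPM with vehicle, without a call for any of the 7 (edgeR). Mast cell and basophil markers summed to 42.2 to 46.3 CPM with CKI and 439 to 634 CPM with vehicle. Most of that sum was Mcpt8, at 36.1 and 31.4 CPM with CKI and 628 and 436 CPM with vehicle. Kit overlapped, at 6.02 and 14.7 CPM with CKI and 6.16 and 1.35 CPM with vehicle. The part of these cell types was not tested. The calls for Ccr1, Ccl6, Ccl9 and Cxcl15 were all lost without CKI replicate 3, and all lost without CKI replicate 4. Those for Ccl9 and Cxcl15 were lost without either vehicle library, and that for Ccl6 without vehicle replicate 4. Over these fits, each with 1 library left in a group, the log2 change of Ccr1 was -5.87 to -5.17. Fitted on these 4 libraries alone, 15 members were called.

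In Braf Smarcb1 KO thyroids, CKI against vehicle lowered Ccl24 and Ccr1 and raised no member, where 2.05% of all genes fell, 1.80% rose and 3.85% were called in either direction. The share of members called was 4.26%, near that of all genes. Ccr1 was at 2.85, 3.95 and 0.854 CPM with CKI, against 13.5, 17.3 and 38.4 CPM with vehicle (log2 change -3.17, SE 0.70, adjusted p = 0.0128). Ccl24, an eosinophil attractant that acts on Ccr3, was at 0.203, 0.159 and 0.0534 CPM with CKI, against 0.652, 4.02 and 2.79 CPM with vehicle (log2 change -4.13, SE 1.10, adjusted p = 0.0367). Both were lower in every CKI library. Leukocyte markers overlapped here, at 111 to 184 CPM with CKI and 127 to 433 CPM with vehicle. The macrophage sum also did, at 609 to 1730 CPM with CKI and 519 to 1950 CPM with vehicle. Most of that sum was Lyz2, at 1365, 1103 and 361 CPM with CKI and 266, 1347 and 1490 CPM with vehicle. Cd14 (46.2, 50.4 and 31.1 CPM with CKI, 113, 106 and 150 CPM with vehicle) and Cd68 were lower in every CKI library. The other macrophage markers overlapped. Mast cell and basophil markers did not overlap in their sum, at 2.25 to 4.10 CPM with CKI and 26.0 to 461 CPM with vehicle, which rested on Mcpt8. That gene was at 2.99, 0.954 and 0.960 CPM with CKI and 24.9, 127 and 460 CPM with vehicle. Kit overlapped, at 0.930 to 1.87 CPM with CKI and 1.07 to 1.93 CPM with vehicle. The part of these cell types in the fall of Ccr1 was not tested. No member was called without CKI replicate 1 or 4, 1 was called without CKI replicate 2 or vehicle replicate 2, and 3 without vehicle replicate 3. Fitted on these 6 libraries alone, no member was called.

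Across the 4 drug comparisons, which share no library, Ccr1 was the only member called in all 4, and Ccl6 was called in 3. The Ccr1 call depended on single CKI libraries in Braf Smarcb1 KO and in the libraries labelled Braf Arid2 KO. Another 4 members were called lower in 2 genotypes (Ccl9, Ccl17, Cxcl2 and Cxcl3) and 12 in 1, while 28 were never called. The log2 change was negative in all 4 genotypes for 26 of the 47 members and positive in all 4 for Cxcl12 and Ccl27a, neither of which was called. Cxcl12 was at 95 to 226 CPM with CKI and 11.5 to 107 CPM with vehicle in Braf. Besides Ccr1, Cxcl3 was lower in every CKI library than in every vehicle library of its genotype in all 4. Such counts across genotypes were not made over all genes tested, so they describe the members and show no excess among them.

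**Figure D3:**
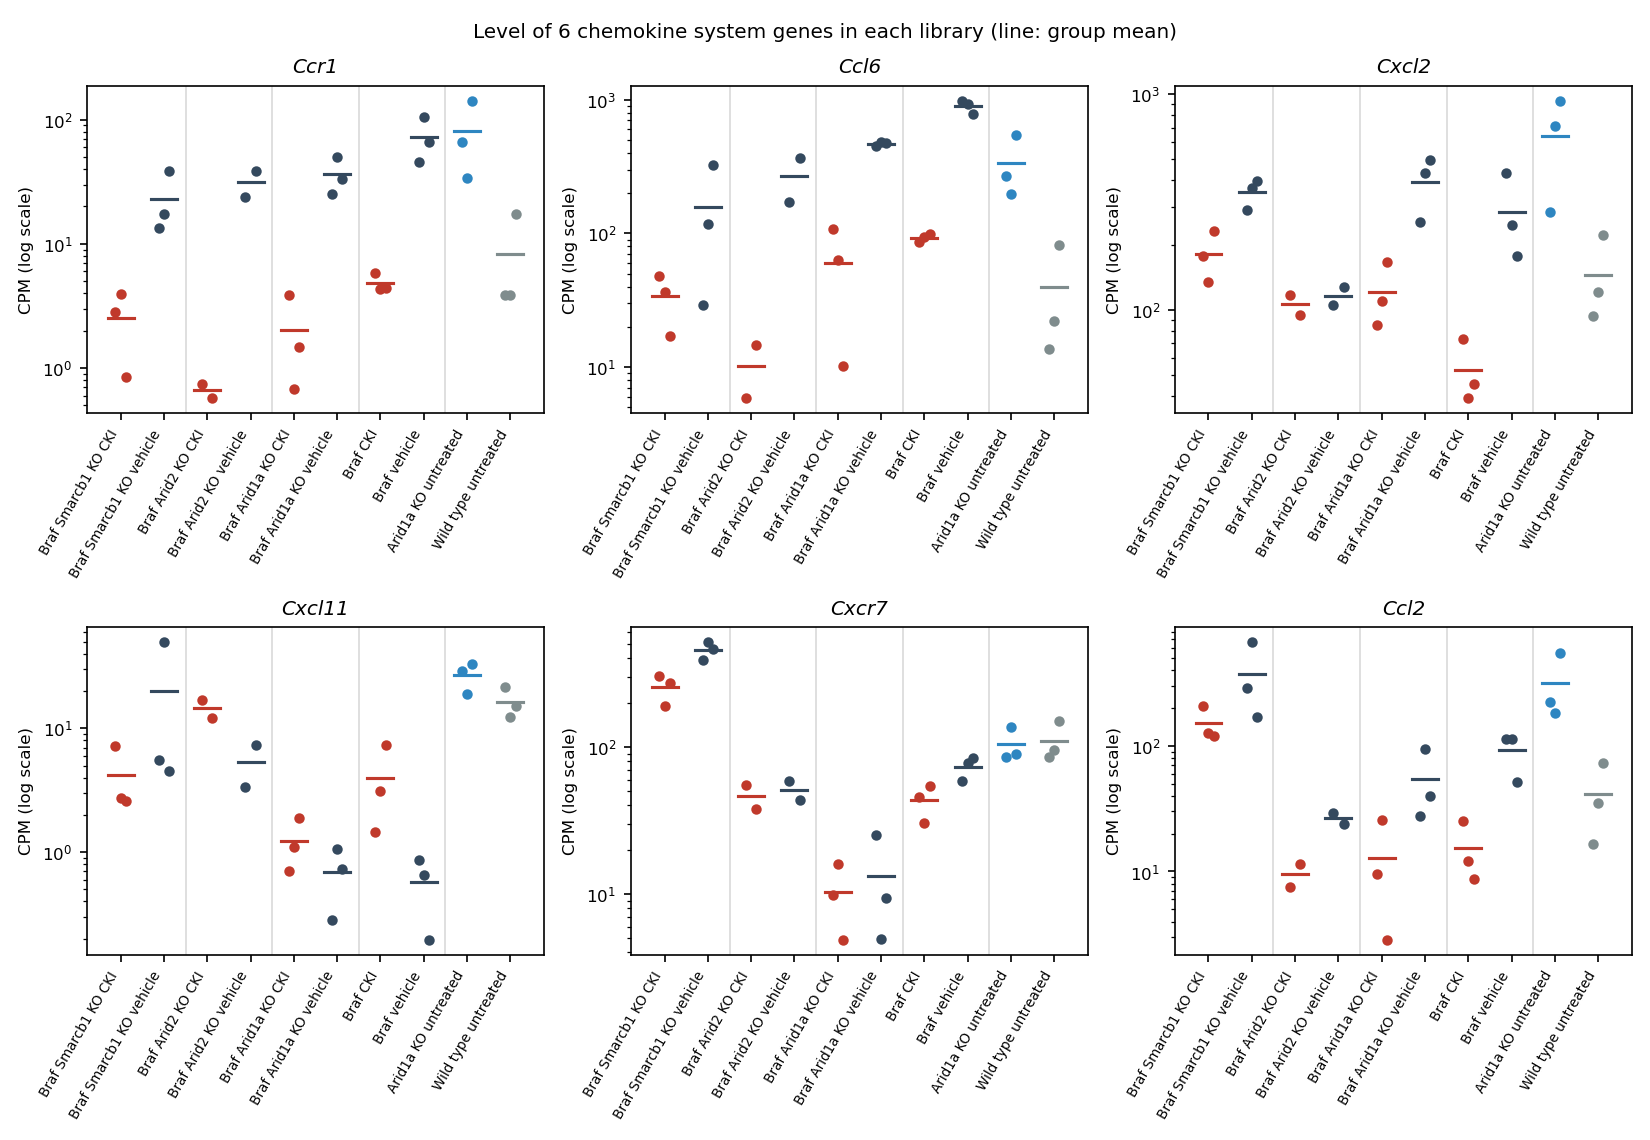
CPM on a log axis in each library (points) with the group mean (line) for Ccr1, Ccl6, Cxcl2, Cxcl11, Cxcr7 and Ccl2. CKI is red, vehicle dark, untreated Arid1a KO blue and wild type grey. Ccr1 lies at 0.572 to 5.78 CPM in every CKI library and at 13.5 CPM or more in every vehicle library.

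Set against the summed 7 leukocyte markers of the same library, Ccr1 separated CKI from vehicle in all 4 genotypes, but this sum leaned on Lcp1. In Braf Arid1a KO, Lcp1 made up 117 of 144 CPM in CKI replicate 5 and 373 of 1025 CPM in vehicle replicate 3. Per 100 CPM of the 7 markers, Ccr1 was at 1.89 to 2.59 CPM with CKI and 4.94 to 7.06 with vehicle in Braf. The corresponding values were 0.180 to 1.02 with CKI and 3.27 to 5.36 with vehicle in Braf Arid1a KO. They were 0.329 to 0.458 with CKI and 4.15 to 7.19 with vehicle in the libraries labelled Braf Arid2 KO. In Braf Smarcb1 KO they were 0.769 to 2.64 with CKI and 8.02 to 10.7 with vehicle. Over the same sum Ccl6 separated in Braf, at 28.1 to 56.3 with CKI and 63.0 to 105 with vehicle. There Lcp1 made up 89.7 of 166 CPM in CKI replicate 4 and 508 of 1481 CPM in vehicle replicate 4. Ccl6 also separated in Braf Arid1a KO and the libraries labelled Braf Arid2 KO, but its ranges overlapped in Braf Smarcb1 KO. In Braf the same ratio overlapped between CKI and vehicle for Cxcl2 (21.1 to 24.0 with CKI, 16.8 to 46.3 with vehicle), for Cxcr4 (1.04 to 2.00 with CKI, 1.05 to 1.54 with vehicle) and for Ccr2. These ratios were chosen after the levels were seen and are a description with no test. Ratios without Lcp1 were not made, so each separation holds for the sum of 7 markers only.

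**Figure D4:**
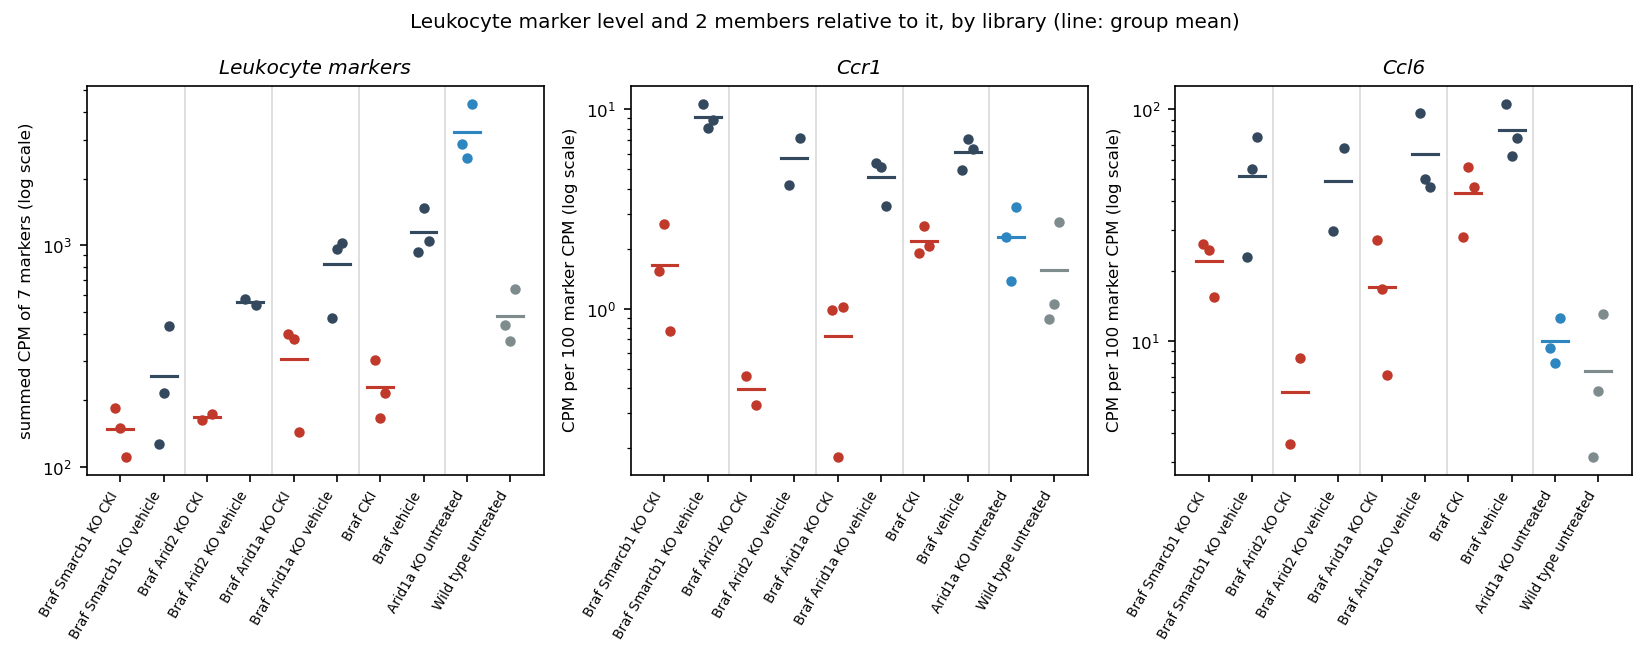
Summed CPM of 7 leukocyte markers (left) and CPM of Ccr1 and Ccl6 per 100 CPM of those markers, on log axes, in each library (points) with the group mean (line). The markers span 111 to 4360 CPM over all libraries, and the Ccr1 ratio lies lower with CKI than with vehicle in each of the 4 genotypes. The marker sum leans on Lcp1 in some CKI libraries.

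The difference in drug response between a knockout and Braf was tested as an interaction. With Arid2 loss, as labelled, 2 members differed, where 1.47% of all genes had a higher and 7.19% a lower response, 8.66% in all. Arid2 was at 20.6 and 27.7 CPM in the CKI libraries labelled Braf Arid2 KO and at 20.5 to 29.8 CPM in Braf CKI, which overlap, and was no lower with vehicle, so the direction rests on the labels. The drug response of Cxcl2 was higher by 2.31 on the log2 scale (SE 0.66, adjusted p = 0.0322), from a log2 change of -0.13 in the libraries labelled Braf Arid2 KO and -2.44 in Braf. For Cxcr4 the difference was 2.32 (SE 0.70, adjusted p = 0.0425), from 0.20 in those libraries and -2.12 in Braf. Cxcr4 was at 7.36 and 10.2 CPM with CKI and 5.47 and 9.87 CPM with vehicle in the libraries labelled Braf Arid2 KO. For both genes the CKI and vehicle libraries overlapped there. The call for Cxcl2 was lost without any 1 of 7 libraries and that for Cxcr4 without any 1 of 8 of the 10 libraries, with adjusted p up to 0.234, and 0 to 2 members were called in these fits.

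With Smarcb1 loss no member's drug response differed from that in Braf by edgeR, 5 members had an unadjusted p under 0.05, DESeq2 called 2, and 0.305% of all genes were called (0.110% higher, 0.195% lower). Cxcl11 had the smallest p, with a difference of -5.05 (SE 1.12, adjusted p = 0.0516). It was at 7.24, 2.73 and 2.61 CPM with CKI, against 5.58, 49.5 and 4.55 CPM with vehicle, in Braf Smarcb1 KO, and a single vehicle library was far above the rest. Cxcr4 came next, with a difference of 2.14 (SE 0.63, adjusted p = 0.204). With Arid1a loss no member and no other gene was called by edgeR, 1 member had an unadjusted p under 0.05, and DESeq2 called no member. Ccr9, a gut-homing receptor, had the smallest p (difference 5.66, SE 2.27, adjusted p = 0.368) and Cxcl11 the next (difference -1.95, SE 1.12, adjusted p = 0.553).

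The Braf Smarcb1 KO vehicle libraries were set against Braf vehicle to ask what Smarcb1 loss changes in Braf V600E thyroid. Of the members 6 rose and 8 fell, which is 29.8% of them, where 14.4% of all genes rose, 14.2% fell and 28.6% were called in either direction, so the share was near that of all genes. Interferon-inducible Cxcl10 and Cxcl11, the monocyte attractant Ccl2 and the scavenger receptor Cxcr7 rose, while Cxcl12, Cxcl9 and several CC ligands, Ccl4, Ccl6, Ccl9 and Ccl11, fell. The median log2 change was -1.28 over the members and 0.03 over all genes.

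Cxcr7, also called Ackr3, which takes up Cxcl11 and Cxcl12, was at 388, 514 and 461 CPM in Braf Smarcb1 KO, against 59.0, 77.3 and 83.5 CPM in Braf (log2 change 2.63, SE 0.46, adjusted p = 0.000309). Its ligand Cxcl11 was at 5.58, 49.5 and 4.55 CPM in Braf Smarcb1 KO, against 0.866, 0.651 and 0.197 CPM in Braf (log2 change 5.13, SE 0.89, adjusted p = 0.000277). Both were higher in every Braf Smarcb1 KO library. Its other ligand Cxcl12, made by stromal cells, was at 4.60, 8.53 and 13.3 CPM in Braf Smarcb1 KO, against 11.5, 106 and 107 CPM in Braf (log2 change -3.09, SE 0.68, adjusted p = 0.00206). These groups overlapped through Braf vehicle replicate 2, in which fibroblast markers summed to 877 CPM and the other Braf vehicle libraries reached 5070 and 21500 CPM. These 3 members, Cxcr7, Cxcl11 and Cxcl12, were the ones called in every fit that left out 1 library.

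Of the other interferon-inducible ligands, Cxcl9 was at 0.0593, 0.0654 and 0.477 CPM in Braf Smarcb1 KO, against 0.407, 18.6 and 7.31 CPM in Braf (log2 change -5.46, SE 1.55, adjusted p = 0.0115). Cxcl10 was at 116, 240 and 19.6 CPM in Braf Smarcb1 KO, against 25.0, 33.8 and 22.6 CPM in Braf (log2 change 2.21, SE 0.70, adjusted p = 0.0213). The groups of both genes overlapped. Ccl2 was at 285, 664 and 168 CPM in Braf Smarcb1 KO, against 114, 114 and 51.6 CPM in Braf (log2 change 2.00, SE 0.69, adjusted p = 0.033), without overlap. Ccl25, the ligand of Ccr9, rose by 1.58 on the log2 scale (SE 0.48, adjusted p = 0.0178). Ccr10 had 25 counts over the Braf Smarcb1 KO libraries and 1 over the Braf libraries, a ratio of 19.8 (95% counting interval 3.25 to 815).

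Among the members that fell, Ccl11, an eosinophil attractant, was at 1.01, 2.52 and 6.27 CPM in Braf Smarcb1 KO, against 19.1, 54.5 and 13.5 CPM in Braf (log2 change -3.16, SE 1.02, adjusted p = 0.0232). Cxcl17 was at 0.326, 1.93 and 5.24 CPM in Braf Smarcb1 KO, against 19.3, 8.79 and 20.7 CPM in Braf (log2 change -2.70, SE 0.86, adjusted p = 0.0226). Both were lower in every Braf Smarcb1 KO library. Ccl4, Ccl6 and Ccl9 fell by 2.25, 2.51 and 2.25 on the log2 scale, also without overlap. Leukocyte markers were at 127 to 433 CPM in Braf Smarcb1 KO and 929 to 1480 CPM in Braf, with 5 of 7 called lower, and their part and that of tissue preparation were not tested. Without Braf Smarcb1 KO replicate 2, 1 or 3 the count was 4, 8 or 20, and without Braf replicate 4 it was 9.

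Braf Arid1a KO vehicle libraries against Braf vehicle gave 2 members that fell and none that rose, 4.26% of the members, where 5.31% of all genes fell, 4.25% rose and 9.56% were called in either direction. Cxcr7 was at 25.2, 4.93 and 9.40 CPM in Braf Arid1a KO, against 59.0, 77.3 and 83.5 CPM in Braf (log2 change -2.47, SE 0.46, adjusted p = 0.00194), without overlap. Cxcl9 was at 0.127, 0 and 0.121 CPM in Braf Arid1a KO, against 0.407, 18.6 and 7.31 CPM in Braf (log2 change -6.59, SE 1.67, adjusted p = 0.0157), also without overlap, although 1 Braf library was at 0.407 CPM. Only Cxcr7 was called in all 6 fits that left out 1 library, and the count was 1 without Braf replicate 4 or Braf Arid1a KO replicate 1, 3 without Braf replicate 2 and 4 without Braf Arid1a KO replicate 2. Leukocyte markers overlapped between the groups, at 471 to 1020 CPM in Braf Arid1a KO and 929 to 1480 CPM in Braf, while fibroblast markers were at 321 to 778 CPM in Braf Arid1a KO and 877 to 21500 CPM in Braf, with 5 of 6 called lower. Their part was not tested.

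In the libraries labelled Braf Arid2 KO with vehicle, 1 member rose against Braf vehicle and none fell, 2.13% of the members, where 2.33% of all genes rose, 1.28% fell and 3.61% were called in either direction. It was Cxcl11, at 3.39 and 7.28 CPM in the libraries labelled Braf Arid2 KO, against 0.866, 0.651 and 0.197 CPM in Braf (log2 change 3.23, SE 0.87, adjusted p = 0.0425). The groups did not overlap, but Arid2 itself was not lower in these libraries, and the call was lost whichever of the 5 libraries was left out and in a fit of these 5 libraries alone. The part of tissue preparation was not tested.

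Braf vehicle libraries were set against untreated wild type to ask what the mutation changes, with vehicle dosing and preparation as further differences that cannot be told apart from it. Of the members 10 rose and 2 fell, which is 25.5%, where 9.84% of all genes rose, 10.1% fell and 20.0% were called in either direction. The neutrophil attractant Cxcl3 and its receptor Cxcr2, the Ccr1 ligands Ccl6 and Ccl9 and the receptors Ccr1 and Cxcr6 rose, while the B cell attractant Cxcl13 and Cxcl11 fell.

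Cxcl3 was at 33.2, 37.5 and 30.3 CPM in Braf, against 0, 0.478 and 2.88 CPM in wild type (log2 change 4.89, SE 1.17, adjusted p = 0.00498). Cxcr2 had 105 counts over the Braf libraries (1.43, 1.52 and 1.38 CPM) and 3 over the wild-type libraries (0.0698, 0.0367 and 0 CPM), a ratio of 41.9 (95% counting interval 14 to 207). Every Braf library was above every wild-type library in both. Cxcl11 was at 0.866, 0.651 and 0.197 CPM in Braf, against 21.7, 12.5 and 15.1 CPM in wild type (log2 change -4.85, SE 0.88, adjusted p = 0.000454). Cxcl13, the ligand of Cxcr5, was at 0, 0.253 and 1.02 CPM in Braf, against 102, 108 and 267 CPM in wild type (log2 change -8.49, SE 1.31, adjusted p = 9.04e-05). These 2 members were lower in every Braf library.

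Cxcl17 was at 19.3, 8.79 and 20.7 CPM in Braf, against 0.558, 0.294 and 1.06 CPM in wild type (log2 change 4.66, SE 0.96, adjusted p = 0.00139). Cxcr6, the receptor of Cxcl16, was at 14.6, 25.5 and 21.0 CPM in Braf, against 3.73, 0.845 and 3.71 CPM in wild type (log2 change 2.88, SE 0.80, adjusted p = 0.0139). Neither overlapped between the groups. Ccl6 was at 980, 932 and 787 CPM in Braf, against 13.7, 22.3 and 82.5 CPM in wild type (log2 change 4.51, SE 0.84, adjusted p = 0.000619). Ccr1 was at 46.0, 104 and 66.6 CPM in Braf, against 3.87, 3.90 and 17.3 CPM in wild type (log2 change 3.11, SE 0.69, adjusted p = 0.00283). Both were higher in every Braf library. Ccl9, Ccl17 and Ccl20, which attracts Ccr6-bearing cells, rose by 2.20, 4.25 and 4.03 on the log2 scale.

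Leukocyte markers were at 929 to 1480 CPM in Braf and 368 to 634 CPM in wild type, with 3 of 7 called higher. Mast cell and basophil markers summed to 370 to 4300 CPM in Braf and 26.0 to 97.7 CPM in wild type, but did not move together. Mcpt8 was at 4299, 341 and 1816 CPM in Braf and at most 0.419 CPM in wild type. Kit was lower in Braf (3.21, 14.3 and 4.09 CPM) than in wild type (97.3, 74.0 and 25.7 CPM). B cell markers were lower, at 3.72 to 8.68 CPM in Braf and 19.4 to 29.1 CPM in wild type, beside the fall of Cxcl13, with 1 of 4 called. Endothelial markers were at 17.9 to 492 CPM in Braf and 1580 to 2220 CPM in wild type, with 6 of 6 called lower. Parathyroid markers, which do not belong to the follicle, were at 32.8 to 60.2 CPM in Braf and 4210 to 14800 CPM in wild type. The part of these cells was not tested. Calls for 9 of the 12 members were kept in all 6 fits that left out 1 library, and the count was 17 without wild-type replicate 3.

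Untreated Arid1a KO thyroids were set against wild type to see Arid1a loss without mutant Braf, with preparation as a further difference that cannot be told apart from it. Here 22 members rose and none fell, which is 46.8%, where 6.84% of all genes rose, 11.8% fell and 18.6% were called in either direction. Among them were the 14 ligands Ccl2, Ccl3, Ccl4, Ccl5, Ccl6, Ccl7, Ccl9, Ccl11, Ccl12, Ccl17, Ccl22, Cxcl2, Cxcl10 and Cxcl17, and receptors that included Ccr1, Ccr2, Ccr3, Cxcr2, Cxcr3, Cxcr4 and Cxcr6. No member's groups overlapped among these 22, and the median log2 change was 2.77 over the members and -0.01 over all genes.

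Ccl4 was at 443, 848 and 2122 CPM in Arid1a KO, against 45.2, 60.7 and 62.5 CPM in wild type (log2 change 4.34, SE 0.80, adjusted p = 0.0021). Ccl3 was at 335, 393 and 1044 CPM in Arid1a KO, against 24.6, 38.2 and 64.3 CPM in wild type (log2 change 3.80, SE 0.81, adjusted p = 0.00386). Ccl5, made by T cells among others, was at 13.5, 33.0 and 71.2 CPM in Arid1a KO, against 1.92, 2.17 and 3.46 CPM in wild type (log2 change 3.96, SE 0.75, adjusted p = 0.00252). In each of these 3 ligands the highest library was replicate 3, the one with thymocyte markers. Cxcl17 was at 5.09, 17.2 and 8.07 CPM in Arid1a KO, against 0.558, 0.294 and 1.06 CPM in wild type (log2 change 3.98, SE 0.93, adjusted p = 0.00614).

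Ccr2 was at 353, 160 and 365 CPM in Arid1a KO, against 10.4, 14.3 and 38.3 CPM in wild type (log2 change 3.80, SE 0.75, adjusted p = 0.00299). Ccr1 was at 65.5, 33.8 and 142 CPM in Arid1a KO, against 3.87, 3.90 and 17.3 CPM in wild type (log2 change 3.26, SE 0.70, adjusted p = 0.004). Both of these receptors of myeloid cells were higher in every Arid1a KO library. Ccr3, the eosinophil receptor, had 96 counts over the Arid1a KO libraries (0.337, 0.652 and 2.84 CPM) and 1 over the wild-type libraries, a ratio of 105 (95% counting interval 18.4 to 4180). Cxcr2 had 52 counts in Arid1a KO and 3 in wild type, a ratio of 18.9 (interval 6.13 to 94.8).

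Cxcr3, the receptor of Cxcl9, Cxcl10 and Cxcl11 on T cells, was at 10.8, 12.2 and 20.7 CPM in Arid1a KO, against 2.37, 1.10 and 2.82 CPM in wild type (log2 change 2.79, SE 0.73, adjusted p = 0.0111). Cxcr4 was at 38.5, 27.8 and 69.0 CPM in Arid1a KO, against 5.83, 4.23 and 9.70 CPM in wild type (log2 change 2.77, SE 0.47, adjusted p = 0.00142). Cxcr6 was at 14.6, 10.4 and 14.5 CPM in Arid1a KO, against 3.73, 0.845 and 3.71 CPM in wild type (log2 change 2.25, SE 0.78, adjusted p = 0.0479). The groups did not overlap in any of them. All 7 leukocyte markers rose as well, to 2470 to 4360 CPM in Arid1a KO, against 368 to 634 CPM in wild type, and macrophage markers were at 7060 to 17800 CPM in Arid1a KO and 725 to 2570 CPM in wild type. Per 100 CPM of leukocyte markers, Ccr1 overlapped, at 1.37 to 3.25 in Arid1a KO and 0.889 to 2.73 in wild type. Fibroblast markers, 4 of 6 called higher, were at 9770 to 13200 CPM in Arid1a KO and 722 to 1420 CPM in wild type. T cell markers were at 52.8 to 203 CPM in Arid1a KO and 16.5 to 35.7 CPM in wild type, with 2 of 7 called higher. Dendritic cell markers were at 91.9 to 122 CPM in Arid1a KO and 22.6 to 30.2 CPM in wild type, and neutrophil markers at 34.2 to 80.4 CPM in Arid1a KO and 3.04 to 10.5 CPM in wild type. Most of the neutrophil sum was Csf3r, at 49.06, 31.19 and 75.45 CPM in Arid1a KO and 2.16, 4.26 and 8.42 CPM in wild type. No other neutrophil marker exceeded 1.97 CPM in either group, and Ly6g and Elane were at 0 in both. Parathyroid markers were lower, at 136 to 629 CPM in Arid1a KO and 4210 to 14800 CPM in wild type. The part of these cells in the rises was not tested. Without Arid1a KO replicate 3 the count was 10, and without wild-type replicate 2 it was 13.

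**Figure D5:**
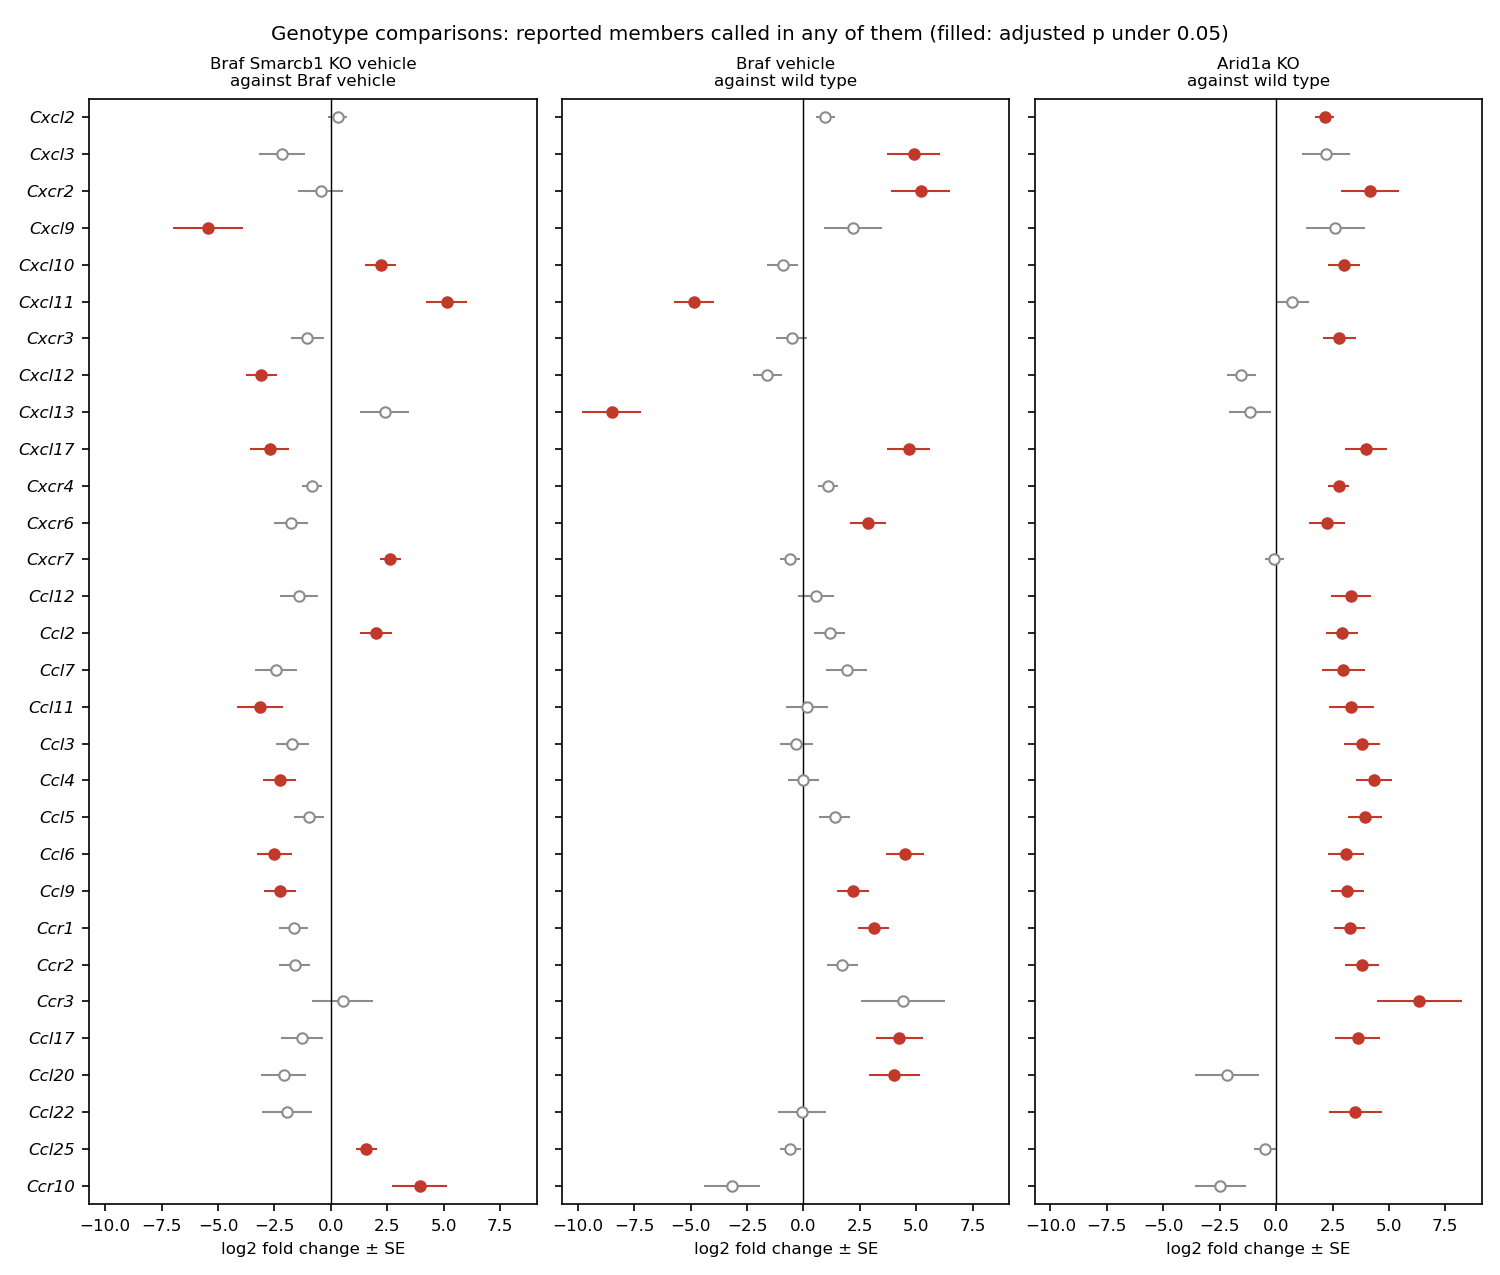
Log2 fold change (x axis) with its SE (bars) for the members called in at least 1 of 3 genotype comparisons and reported here (rows): Braf Smarcb1 KO vehicle over Braf vehicle, Braf vehicle over wild type and untreated Arid1a KO over wild type. Filled points have an adjusted p under 0.05. All filled points of the Arid1a KO panel lie right of 0. The fitted changes of Cxcr2, Ccr3 and Ccr10 rest on few counts. The first pair of panels shares the Braf vehicle libraries and the last pair the wild-type libraries.

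Of 12 tested genes of the chemokine system outside the rule (such as Cx3cl1, Xcr1, the platelet chemokine Pf4 and the decoy receptors), 6 fell with CKI in Braf and 1 each in Braf Arid1a KO and the libraries labelled Braf Arid2 KO. Ccrl2, an atypical receptor that presents chemerin, fell by 1.99 on the log2 scale in Braf (adjusted p = 0.0132) and by 1.71 in Braf Arid1a KO (adjusted p = 0.0436, edgeR). Against wild type 5 of the 12 rose in untreated Arid1a KO and 1 in Braf vehicle, and 6 fell in Braf Smarcb1 KO against Braf vehicle. Cx3cl1, the membrane-bound ligand of Cx3cr1, fell by 2.37 there (SE 0.37, adjusted p = 0.000105).

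Of 12 genes linked to NF-kappaB, the inducers Il1a, Il1b and Tnf fell with CKI in Braf and Braf Arid1a KO, and Il1a and Il1b fell in the libraries labelled Braf Arid2 KO. Il1a was at 16.6, 8.30 and 1.65 CPM with CKI, against 212, 107 and 81.2 CPM with vehicle, in Braf (log2 change -3.91, SE 0.79, adjusted p = 0.00502). Its groups did not overlap. Relb, an NF-kappaB subunit, rose with CKI in Braf, at 37.6, 39.6 and 15.1 CPM with CKI, against 7.74, 4.38 and 7.82 CPM with vehicle (log2 change 2.21, SE 0.59, adjusted p = 0.0199). In the libraries labelled Braf Arid2 KO it was at 7.44 and 8.44 CPM with CKI and 44.0 and 33.5 CPM with vehicle, and the difference in its drug response from Braf was -4.50 on the log2 scale (SE 0.94, adjusted p = 0.0141). The median log2 change of this list with CKI was 0.58 in Braf Smarcb1 KO, -0.82 in the libraries labelled Braf Arid2 KO, 0.11 in Braf Arid1a KO and 0.37 in Braf, and the medians over all genes lay between -0.03 and 0.04. None of these 12 genes was called with CKI in Braf Smarcb1 KO (edgeR).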

How the data were processed

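Bulk RNA-seq of 28 libraries was analysed from the table of raw counts per gene that the authors deposited. STAR 2.4, HTSeq 0.6.1, DESeq2 and the build mm9 are named, per the submitters' processing notes, and libraries were made with a TruSeq RNA kit, per the labels' protocols. Whether counting used strand is not given in the sources used here, and close copies among the CC ligands may share reads. Of the 30 labelled samples, 2 were not analysed here (Braf Arid2 KO vehicle replicate 1 and CKI replicate 2). Genes were kept with edgeR's filterByExpr, scaled by TMM and fitted over all 10 groups with edgeR 4.0.16 (quasi-likelihood test, limma 3.58.1, R 4.3.3), with Benjamini-Hochberg adjustment over all genes and a threshold of 0.05. Drug responses were compared as interactions. The steps were tested on simulated data. Alternatives were DESeq2 1.42.0, its size factors, no filter, a replicate block, separate fits and leaving out each library. The members and lists were chosen with earlier results of these data known. The text names every called member and gives every library's value for up to 6 per comparison with the largest change and at least 1 CPM in the higher group, plus called receptors. Values for other members, and the ratios to leukocyte markers, were added after they were seen. A member that counts in the totals is not reported here by name. Counting intervals cover counting error only.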

Additional observations from a re-analysis of the deposited data

Results flagged for a closer look

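The drug responses of Cxcl2 and Cxcr4 in the libraries labelled Braf Arid2 KO differed from those in Braf in a test of the interaction (edgeR quasi-likelihood test). The difference was 2.31 on the log2 scale for Cxcl2 (adjusted p = 0.0322) and 2.32 for Cxcr4 (adjusted p = 0.0425). Over the alternatives that left out 1 library, the adjusted p reached 0.171 for Cxcl2 and 0.234 for Cxcr4. Arid2 counts did not separate these libraries from Braf, so the genotype behind the difference rests on the labels.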

How the results depend on the processing

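No called member changed direction under any alternative, and 28 of 81 member calls were kept in every fit that left out 1 library. DESeq2's size factors in place of TMM moved no count by over 1.5 times. Members called with CKI against vehicle numbered 15 in Braf Arid1a KO, 11 in the libraries labelled Braf Arid2 KO and 5 in Braf Smarcb1 KO by DESeq2, which also called 5 for the libraries labelled Braf Arid2 KO against Braf, 20 for Braf against wild type and 2 for the difference in drug response with Smarcb1 loss. Without the filter on low counts the count was 8 for CKI in Braf Arid1a KO, 1 for the difference with Arid2 loss and 1 for that with Smarcb1 loss. In fits of only the groups compared it was 1 for CKI in Braf Arid1a KO, 15 in the libraries labelled Braf Arid2 KO and 0 in Braf Smarcb1 KO, and 0 for the libraries labelled Braf Arid2 KO against Braf. The cause of these moves was not tested.

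With the replicate block the count was 1 for CKI in Braf Arid1a KO, 1 in Braf Smarcb1 KO, 1 for Braf Arid1a KO against Braf and 1 for the difference with Arid2 loss. The labels do not state that replicate numbers pair samples. Between untreated Arid1a KO and wild type, the only groups compared that share 3 numbers, same-numbered libraries' deviations correlated at 0.04, 0.151 and 0.042. For CKI against vehicle the values were -0.38 and -0.089 in Braf, -0.048 in Braf Arid1a KO and -0.076 and -0.056 in Braf Smarcb1 KO. In the libraries labelled Braf Arid2 KO the value was -0.184.

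Leaving out each library in turn gave 4 to 14 called members for CKI in Braf, 1 to 6 in Braf Arid1a KO, 0 to 2 in the libraries labelled Braf Arid2 KO and 0 to 3 in Braf Smarcb1 KO. It gave 4 to 20 for Braf Smarcb1 KO, 1 to 4 for Braf Arid1a KO and 0 for the libraries labelled Braf Arid2 KO, each against Braf, 9 to 17 for Braf against wild type and 10 to 23 for untreated Arid1a KO against wild type. For the differences in drug response it gave 0 to 2 with Arid2 loss, 0 to 1 with Smarcb1 loss and 0 with Arid1a loss. A library left alone in its group was assumed to vary like the other groups. Members with few counts, such as Cxcr2, Ccr3 and Ccr10, are limited by depth.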
